A study of Mus musculus with 15 samples.

Results

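Windows with transient H3K27Ac are stretches of 3 kb of the mouse genome in which H3K27 acetylation was low before induction, rose during the conversion of pre-B cells into macrophage-like cells and was low again at its end. The genome (mm9, chromosomes 1 to 19 and X) was tiled in windows of 3 kb. F, the number of distinct tag positions in a window over the mean of all windows of that library, was taken as the level of a mark. A window was chosen when its H3K27Ac F was below 1.5 at 0 and at 48 h post-induction (hpi) and at least 3 at 3, 12 or 24 hpi. The windows were thus chosen by their H3K27Ac values alone, and this held for 809 of the 832530 windows with a tag in any library, or 0.0972% of them. They were sorted by the time of their highest H3K27Ac, which gave classes of 504 (3 hpi), 168 (12 hpi) and 137 windows (24 hpi).

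The cells were C10, a clonal line derived from the Haftl mouse pre-B cell line, which carries a retroviral C/EBPα fused to the hormone-binding domain of the estrogen receptor. They were induced with β-estradiol and grown with IL-3 and CSF-1, and control cells received the solvent ethanol. ChIP-seq for H3K4Me1, H3K27Ac and H3K27Me3 was done at 0, 3, 12, 24 and 48 hpi, with 1 library for each mark and time. No difference between times can therefore be set against replicate error. Exact Poisson 95% intervals of tag counts cover counting error only. Exact binomial 95% intervals of shares take the windows as independent and cover no replicate error.

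H3K27Ac is deposited by acetyltransferases such as p300 and CBP and marks active promoters and enhancers. H3K4Me1 is written at enhancers by MLL3 and MLL4 and is found at both poised and active ones, while H3K27Me3 is the repressive mark of the Polycomb complex PRC2. C/EBPα is a bZIP transcription factor that, together with the ETS factor PU.1, drives myeloid genes, and its forced expression converts B lineage cells into macrophages.

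The libraries held 10.91 to 17.53 M distinct tags for H3K4Me1 and H3K27Ac and 15.34 to 31.54 M for H3K27Me3. H3K27Ac at gene starts matched the cell labels: all 8 B lineage markers read were at least 2-fold lower at 48 than at 0 hpi and all 8 macrophage markers were at least 2-fold higher. The start of Pax5, a B lineage transcription factor gene, went from F 72.7 to 19.2 and that of Ebf1, another, from 56.1 to 19.1, and all 8 B lineage markers were still above F 3 at 48 hpi. The H3K27Ac libraries of 0 and 3 hpi stood apart from the other 13. In a segment of 90 kb of the immunoglobulin heavy chain locus they held 523 and 438 tags, whereas each of the other libraries held between 0 and 4. A rise from 0 to 3 hpi thus compares the pair of libraries that hold the segment, and a fall from 12 or 24 to 48 hpi compares libraries that lack it. A fall of H3K27Ac from 3 to 12 hpi, and a change from 0 to 12, 24 or 48 hpi, compares libraries that differ in this respect, and time and cell population cannot be told apart there. This holds for the marker check, for H3K27Ac at 48 against 0 hpi and for the lasting gains used as a comparison. The H3K4Me1 library of 3 hpi held 2 tags in the segment.

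The 200 bp with the most H3K27Ac tags at the peak are shown for 5 of the 6 windows that ranked first and second in their class by H3K27Ac over their ends, as examples of sites with a strong transient signal. The sequences are the plus strand of NCBIM37 (mm9). Capitals mark matches to any of 12 short motifs on either strand (spelled out further on), and sequences without capitals held none.

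Upstream of Hddc2, peak at 3 hpi, chr10:30981359-30981558: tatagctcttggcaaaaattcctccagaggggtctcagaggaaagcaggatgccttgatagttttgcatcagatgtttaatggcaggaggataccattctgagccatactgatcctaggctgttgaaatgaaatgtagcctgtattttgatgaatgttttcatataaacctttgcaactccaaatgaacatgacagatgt
Intron of Tshr, peak at 12 hpi, chr12:92650846-92651045: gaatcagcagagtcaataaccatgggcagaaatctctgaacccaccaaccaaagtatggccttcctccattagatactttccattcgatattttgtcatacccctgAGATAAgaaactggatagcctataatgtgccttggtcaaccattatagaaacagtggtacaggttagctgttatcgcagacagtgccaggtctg
Intron of Cldn14, peak at 12 hpi, chr16:94007224-94007423: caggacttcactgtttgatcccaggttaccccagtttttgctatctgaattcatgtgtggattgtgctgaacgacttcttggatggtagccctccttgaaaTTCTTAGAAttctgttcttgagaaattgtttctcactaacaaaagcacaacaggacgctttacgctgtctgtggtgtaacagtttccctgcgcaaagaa
Upstream of Abcc8, peak at 24 hpi, chr7:53439531-53439730: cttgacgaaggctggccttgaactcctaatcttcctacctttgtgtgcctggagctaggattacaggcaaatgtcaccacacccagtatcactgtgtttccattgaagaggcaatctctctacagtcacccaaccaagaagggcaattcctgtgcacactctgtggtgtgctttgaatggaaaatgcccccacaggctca
Upstream of Agps, peak at 24 hpi, chr2:75640031-75640230: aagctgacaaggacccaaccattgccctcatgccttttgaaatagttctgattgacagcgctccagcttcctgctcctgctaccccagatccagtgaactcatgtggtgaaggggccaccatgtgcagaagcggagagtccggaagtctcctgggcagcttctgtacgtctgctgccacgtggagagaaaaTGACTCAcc

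The capitals mark 1 match to the GATA motif in Tshr, 1 to the STAT motif in Cldn14 and 1 to the AP-1 motif upstream of Agps. None of the 5 sequences held the C/EBP or PU.1 motif. A match is a run of letters and not a bound site, and a missing match speaks only of these 200 bp.

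The H3K27Ac values of this section were used to choose the windows and are given as a description. In windows with the peak at 3 hpi, median H3K27Ac F over 0, 3, 12, 24 and 48 hpi was 0.821, 3.89, 1.43, 0.855 and 0.812. In those with the peak at 12 hpi it was 0.657, 1.66, 3.62, 2.14 and 1.12 in the same order. In those with the peak at 24 hpi it was 0.438, 0.807, 1.89, 3.66 and 1.22. In each class the median was above 3 at the peak time only. The later classes had intermediate medians before their peak, while no library was taken between 0 and 3 hpi. The median at 48 hpi was close to that at 0 hpi in the early class and above it in the later classes. H3K27Ac was higher at 48 than at 0 hpi in 53.0% of the windows with the peak at 3 hpi, in 83.3% of those at 12 hpi and in 91.2% of those at 24 hpi. The share of all windows was not computed. These comparisons depend on the scaling: the alternatives described below multiplied the 0 hpi library by 0.978 and 0.921 and the 48 hpi library by 1.17 and 1.21. The libraries of 0 and 48 hpi also differ at the heavy chain segment.

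**Figure D1:**
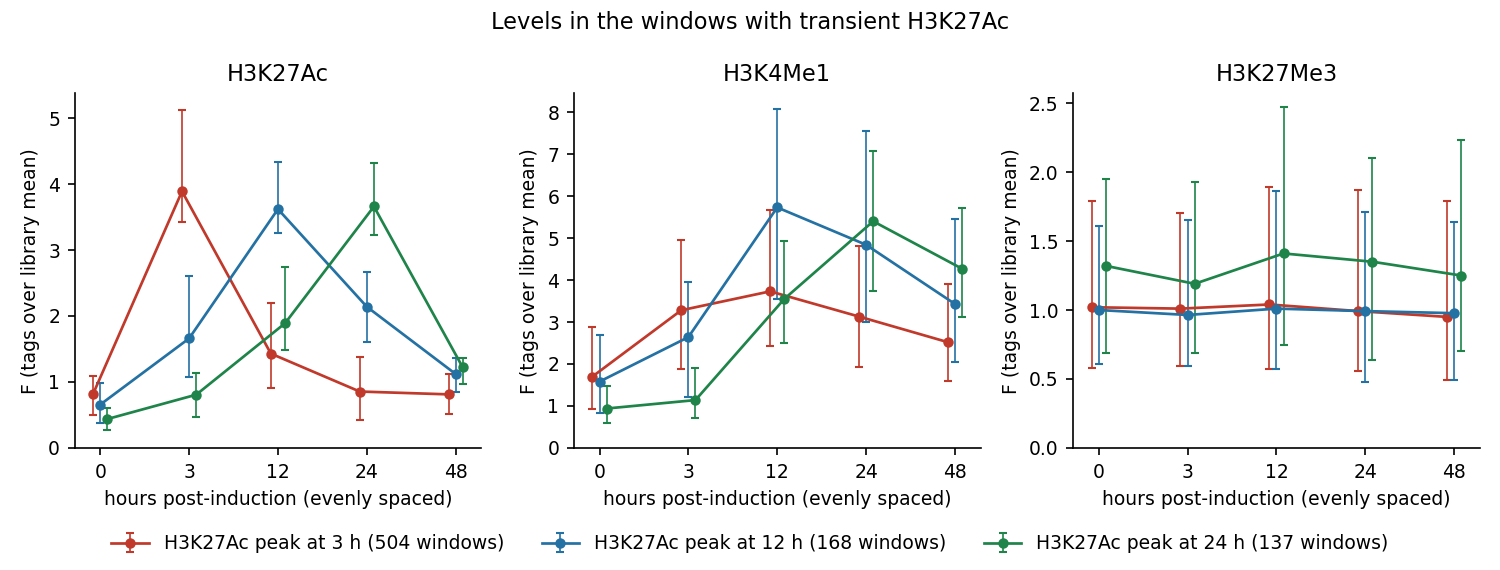
Median F (points) and quartiles (bars) of H3K27Ac, H3K4Me1 and H3K27Me3 at 5 times in the windows with the H3K27Ac peak at 3, 12 or 24 hpi. H3K27Ac, which chose the windows, peaks at F 3.62 to 3.89, H3K4Me1 at 48 hpi stays above its 0 hpi median in all 3 classes, and H3K27Me3 stays between medians of 0.95 and 1.41.

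Most windows were high at a single time. F reached 3 at 3 hpi only in 449 windows, at 12 hpi only in 121 and at 24 hpi only in 109, while 62 windows reached it at 3 and 12 hpi, 45 at 12 and 24 hpi and 21 at all 3 times. An F of 3 corresponded to 54.8 to 63.2 tags and an F of 1.5 to 27.4 to 31.6 tags. These limits place the Poisson interval of every peak above those of both ends, by the rule alone. The thresholds cut through a continuum: 188 members had a peak F of 3 to 3.3, and 317 windows that met the rest of the rule had a peak of 2.7 to 3. At the other threshold, 176 members had an end within 10% below F 1.5, and 258 windows missed the rule with an end up to 10% above it.

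The number of windows with the peak at 24 hpi depended on how the libraries were scaled. The 24 hpi H3K27Ac library had the lowest background. Scaling on background windows multiplied it by 1.86, and the 3 hpi library by 0.687, which gave 1174 windows with the latest peak, 33 with the 12 hpi peak and 155 with the earliest. Scaling on windows high at all 5 times gave 58, 104 and 450 in the same order. The 3 classes are therefore described separately, and their relative sizes are not read as a result.

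The windows with the highest H3K27Ac over both ends had the peak at 3 hpi, with up to 19.4-fold (0.5 added to F) over the higher end. This was in the Igk locus, inside the span of the annotated segments of the immunoglobulin kappa light chain. There H3K27Ac gave 2, 381, 22, 8 and 9 tags over the 5 times. H3K4Me1 gave 47, 95, 85, 41 and 34 tags in the same order, so it was higher at 3 and 12 hpi and back near its first value at 24 hpi. The second was at chr10:30981001-30984000, between genes and 50.7 kb upstream of Hddc2, which encodes a phosphohydrolase domain protein. It held 13, 414, 34, 5 and 8 H3K27Ac tags, and 48, 112, 115, 47 and 33 H3K4Me1 tags. In both windows the 3 hpi H3K27Ac library was the one H3K27Ac library above F 3, while H3K4Me1 was above 3 at 12 hpi too, with F of 4.31 at Igk and 5.84 upstream of Hddc2.

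The highest 3 hpi count was in an intron of Dcun1d5, a gene for a cofactor of cullin neddylation, at chr9:7203001-7206000. H3K27Ac tags there were 27, 446, 78, 26 and 28, and H3K4Me1 tags were 30, 156, 197, 65 and 27. H3K27Ac F was 1.48 at 0 hpi and 1.42 at 48 hpi, just below the limit of 1.5. H3K4Me1 here also rose and fell, with its highest value at 12 hpi, after that of H3K27Ac. Its F of 1.76 at 0 hpi and 2.06 at 48 hpi would not meet the transient rule. At 3 hpi the libraries of these marks differ at the heavy chain segment. A window 6.76 kb upstream of Cacng3, which encodes a calcium channel gamma subunit, held 13, 248, 40, 29 and 6 H3K27Ac tags. Its H3K4Me1 was already 103 tags at 0 hpi, and was 200, 215, 149 and 106 afterwards. A window 10.9 kb upstream of Nup205, which encodes a nuclear pore scaffold protein, held 10, 201, 35, 14 and 10 H3K27Ac tags and 23, 83, 103, 54 and 29 H3K4Me1 tags. In each of these 3 windows H3K4Me1 at 48 hpi was close to its 0 hpi count, with overlapping Poisson intervals. The 48 hpi H3K4Me1 library was smaller, so that equal counts are a higher F, for instance 6.04 at 0 hpi and 8.09 at 48 hpi at Cacng3.

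The windows with the peak at 12 hpi were led by an intron of Tshr, the gene of the thyrotropin receptor. At chr12:92649001-92652000 H3K27Ac tags were 6, 251, 315, 132 and 23. H3K4Me1 tags were 62, 209, 277, 128 and 91. In an intron of Cldn14, which encodes a tight junction protein, at chr16:94005001-94008000, H3K27Ac tags were 5, 228, 228, 155 and 20, so that 3 and 12 hpi did not differ in count and the smaller library of 12 hpi set the class. H3K4Me1 tags there were 70, 157, 249, 121 and 81. A window 8.58 kb upstream of Tmem192, a lysosomal membrane protein gene, held 8, 160, 211, 88 and 19 H3K27Ac tags. Its H3K4Me1 tags were 24, 110, 278, 117 and 79. These 3 windows were high at 3 hpi already and fell over 24 and 48 hpi. Most of the class was not: 28 of its 168 windows reached F 3 at 3 hpi, and a window in Ccdc123, among the 8 leading ones, held 9, 33, 110, 39 and 12 tags.

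A window 13.7 kb from the start of Sucnr1, the succinate receptor gene, gave 19, 157, 194, 88 and 24 H3K27Ac tags. One 134 kb from Ptger3, a prostaglandin E2 receptor gene, gave 8, 78, 141, 61 and 14. An intron of Diap3, a formin gene, gave 8, 146, 149, 117 and 16, and its H3K4Me1 tags were 14, 50, 125, 57 and 15. The Diap3 window came back to its 0 hpi count in H3K4Me1, whereas the Tmem192 window went from 24 to 79 tags.

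The windows with the peak at 24 hpi were led by one 5.1 kb upstream of Abcc8, which encodes the sulfonylurea receptor of potassium channels, at chr7:53439001-53442000. H3K27Ac tags were 7, 14, 139, 226 and 29. H3K4Me1 tags were 24, 42, 223, 126 and 57, with their highest value at 12 hpi, before that of H3K27Ac. The next was 29.7 kb upstream of Agps, a gene of ether lipid synthesis, at chr2:75639001-75642000, with 6, 42, 135, 212 and 28 H3K27Ac tags. Its H3K4Me1 tags were 16, 36, 210, 170 and 116. H3K27Ac F at 48 hpi was 1.47 at Abcc8 and 1.42 at Agps, just below the limit of 1.5. Both alternative scalings raised the 48 hpi library, which takes both windows above this limit. In both windows H3K4Me1 at 48 hpi lay above its 0 hpi count, with Poisson intervals that did not overlap. The same held for H3K27Ac in both windows.

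A window at the start of Fyb, which encodes an adaptor of T cell and myeloid signalling, gave 7, 22, 54, 113 and 18 H3K27Ac tags. A window 31.7 kb from the start of Dppa3, a germ cell gene, gave 6, 12, 18, 112 and 18 H3K27Ac tags, and 7, 9, 30, 96 and 100 H3K4Me1 tags. At Dppa3, H3K4Me1 was as high at 48 as at 24 hpi, when H3K27Ac had fallen from 112 to 18 tags. An adjoining window there had H3K27Ac F of at least 3 at 0 or 48 hpi, as was also so at Diap3 and Ccdc123.

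**Figure D2:**
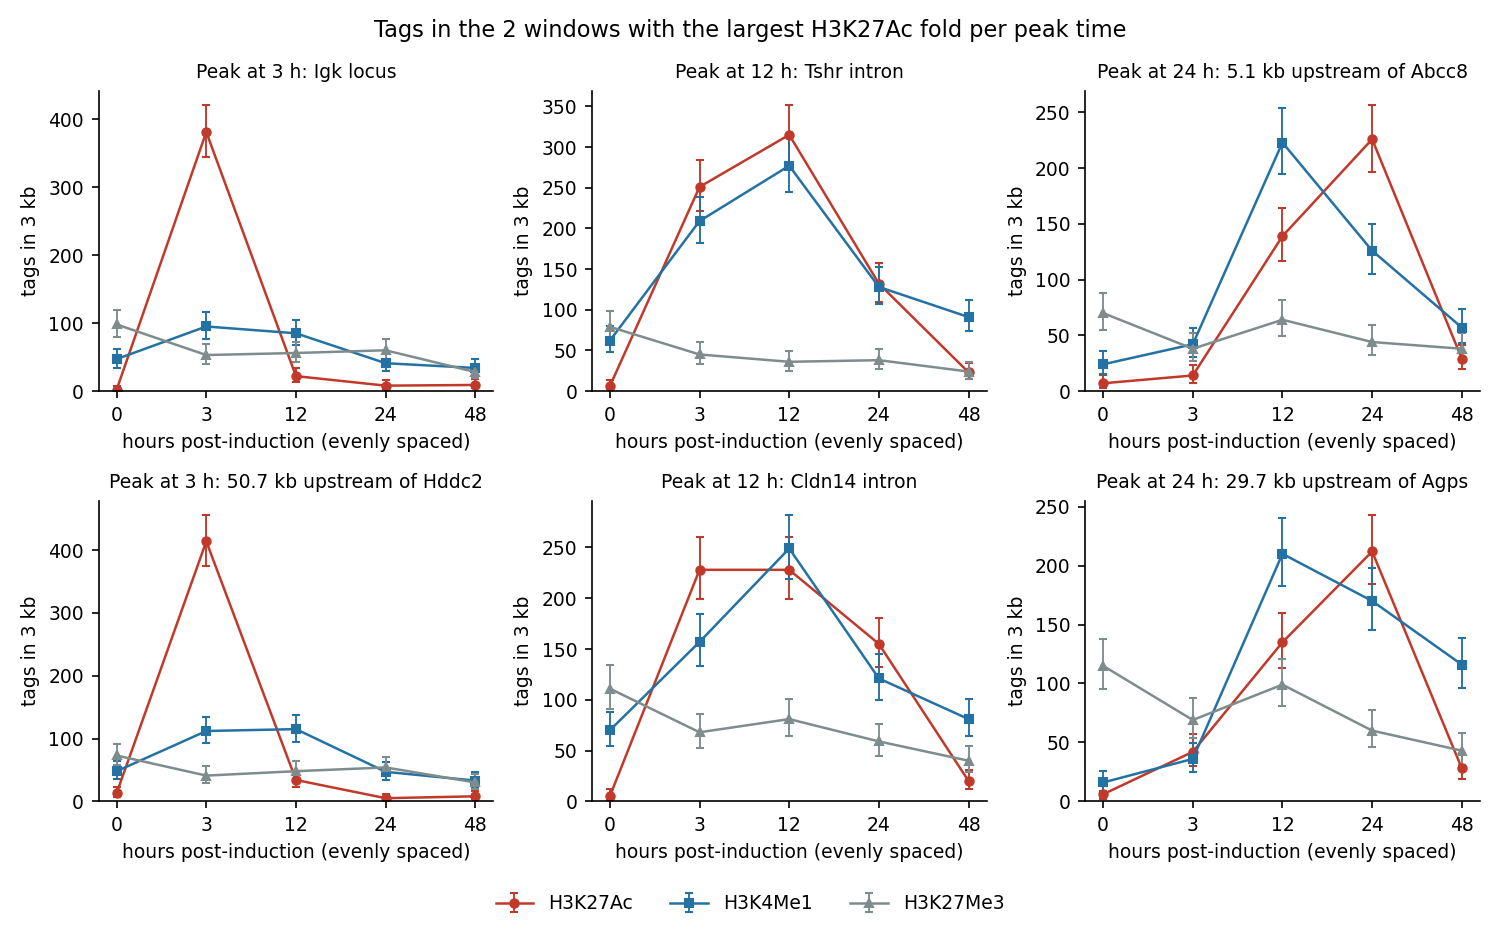
Distinct tags in 3 kb (points) with exact Poisson 95% intervals (bars) for the 3 marks at 5 times, in the 2 windows of each peak class with the highest H3K27Ac over both ends. H3K27Ac at the peak is 212 to 414 tags against 2 to 29 at 0 and 48 hpi.

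Most members had no adjoining member. The 809 windows formed 725 stretches of adjoining windows, of which 652 were single windows, 64 held 2, 7 held 3 and 2 held 4. This does not mean that the acetylation ended at the window. At the time of the peak, mean H3K27Ac F in bins of 500 bp was as high beside the windows as in them in the earlier classes. In the 3 hpi class it was 5.89 at 2.25 kb before the middle, against 4.38 at 0.25 kb before it. In the 12 hpi class it was 7.02 at 5.25 kb before and 6.48 at 6.25 kb after the middle, against 3.79 at 0.25 kb after it. In the 24 hpi class it was 3.02 at 5.25 kb before and 1.06 at 6.25 kb after, against 3.43 at 0.25 kb after. The longest stretches were chr13:19296001-19308000 in the T cell receptor gamma locus, with 24, 496, 151, 79 and 18 H3K27Ac tags, and chr8:58956001-58968000, with 57, 355, 194, 130 and 76. In 69.2% of windows (95% interval 65.9 to 72.4) neither adjoining window had H3K27Ac of F 3 or more at 0 or 48 hpi. This was 27.4% among the 15608 windows with a lasting gain, those with F below 1.5 at 0 hpi and at least 3 at 48 hpi, and 88.2% among all windows. The members' own ends are low by the rule, so the share among them is not independent of it.

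Some members lay close together. With gaps of up to 100 kb, the largest group was 17 windows over 153 kb in the T cell receptor gamma locus, followed by 9 windows each in the kappa and lambda light chain loci. Outside receptor loci the largest was a group of 8 over 60 kb on chromosome 3, all with the peak at 3 hpi, most of them in introns of Fabp12, a fatty acid binding protein gene. The first-ranked of these, chr3:10281001-10284000, held 5, 226, 31, 12 and 12 H3K27Ac tags and 20, 58, 86, 77 and 52 H3K4Me1 tags. Groups also differed in time. All 5 windows at Fyb on chromosome 15 had the peak at 24 hpi, all 5 at Ccdc123 on chromosome 7 at 12 hpi, and 5 of 7 between Klhl2 and Tmem192 on chromosome 8 at 12 hpi.

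**Figure D3:**
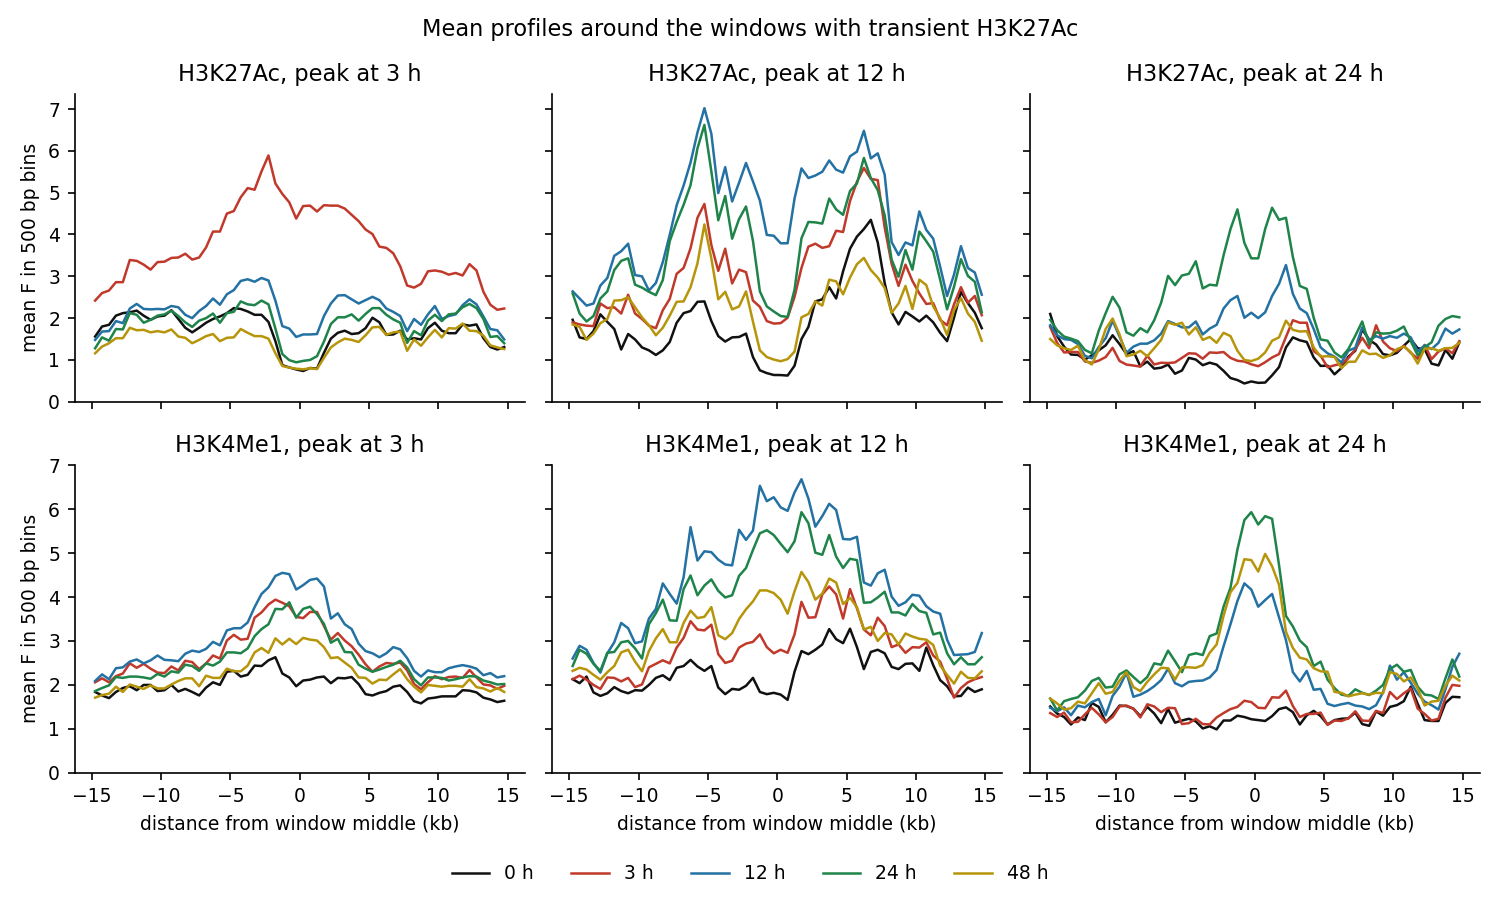
Mean F of H3K27Ac (top) and H3K4Me1 (bottom) in bins of 500 bp within 15 kb of the middle of the windows, by peak class, at 5 times. H3K27Ac dips at the middle at 0 and 48 hpi in the 3 and 12 hpi classes, which follows from the rule. At the peak it is as high beside the windows as in them in these 2 classes, and H3K4Me1 at 48 hpi runs above 0 hpi at the middle in each class.

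H3K4Me1 was not used to choose the windows. Its median F over all 809 windows was 1.53 before induction and then 2.76, 4.01, 3.73 and 3.05, with the highest value at 12 hpi. Its 48 hpi median thus lay between the 0 hpi median and the highest one. Median H3K27Ac F over the same windows was 0.657 at the start and 0.964 at the end, both held below 1.5 by the rule. H3K4Me1 F was at least 3 in 18.7% of windows at 0 hpi (95% interval 16.0 to 21.5, against 7.33% of all windows) and in 50.7% at 48 hpi (47.2 to 54.2, against 9.1%). The first share depended on the scaling. Over the windows chosen under the background scaling it was 5.8%, against 5.12% of all windows, and over those chosen under the other scaling it was 25%, against 7.87%. It reached 3 at some time in 636 windows, or 78.6%, against 11.6% of all windows.

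The H3K4Me1 left at 48 hpi differed between the classes. In windows with the peak at 3 hpi, the share at F 3 over the 5 times was 22.6%, 55.0%, 62.5%, 51.6% and 40.1%. In those with the peak at 12 hpi it was 19%, 41.7%, 82.7%, 75.6% and 61.3%. In those with the peak at 24 hpi it was 3.65%, 10.9%, 62.0%, 87.6% and 76.6%. The 24 hpi class started with the lowest share and ended with the highest. Its intervals did not overlap those of the 3 hpi class, but they take windows as independent, and some members lay close together. The class shares were not recomputed under the other scalings, which changed the classes. The end of the series lay closer to the peak in the later classes. Among all windows, the share at F 3 in the 3, 12 and 24 hpi libraries was 7.68%, 7.91% and 8.81%.

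Counted per window, H3K4Me1 was higher at 48 than at 0 hpi in 613 of the 809 windows, or 75.8% (72.7 to 78.7), against 29.1% of all windows. It was 67.1% in the 3 hpi class, 85.1% in the 12 hpi class and 96.4% in the 24 hpi class. Over the windows chosen under the background scaling the share was 96.5%, against 56.2% of all windows under that scaling. Over those chosen under the scaling on windows high at all times it was 69.4%, against 29.3%. H3K4Me1 was at least 2-fold above 0 hpi (0.5 added to F) at 3, 12 or 24 hpi in 492 windows, or 60.8% against 3.88% of all windows. At 48 hpi, 302 windows, or 37.3% against 4.61%, were at least 2-fold above 0 hpi. By class, this share at 48 hpi was 23.6%, 43.5% and 80.3%.

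A return of H3K4Me1 was less common. It had fallen at least 2-fold from its highest middle value by 48 hpi in 154 windows, or 19% against 3.12% of all windows. The same transient rule, applied to H3K4Me1, was met by 14 of the 809 windows, or 1.73% against 0.0124%. H3K4Me1 at 48 hpi was at least 2-fold below 0 hpi in 24 windows, or 2.97% against 4.42%, and 22 of the 24 had the peak at 3 hpi.

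The time of the highest H3K4Me1 was also read in each class. How often it was highest at each time among all windows was not computed, so the class shares have no baseline. In the 3 hpi class, where 4 of the 5 times are at or after the H3K27Ac peak, H3K4Me1 was highest at 3 hpi in 154 windows and at 12 hpi in 224, or 30.6% and 44.4%. In the 12 hpi class it was highest at 12 hpi in 69.6%. In the 24 hpi class it was highest together with H3K27Ac in 60.6%, later in 24.1% and at 12 hpi in 15.3%. Antibodies, depths and backgrounds differ between the marks, so the order of the marks holds within these libraries. In the heavy chain segment the H3K27Ac libraries of 0 and 3 hpi held 523 and 438 tags and those of H3K4Me1 0 and 2. The order around 3 hpi thus compares libraries that differ in this respect, and time and cell population cannot be told apart there.

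Windows were also split by their H3K4Me1 at 0 hpi. Of the 809, 151 had an F of at least 3 before induction, 261 lay between 1.5 and 3, and 397 (49.1%) were below 1.5. Among the 397, median H3K4Me1 F was 0.821, 1.43, 3.15, 3.2 and 2.52 over the 5 times. In 165 of them, or 20.4% of the 809, it was at least 3 at 48 hpi. This change, from below 1.5 to at least 3, was met by 1.84% of all windows. The levels at the ends were low by these limits but not absent, since median H3K27Ac F of the 397 was 0.438 at 0 hpi and 0.914 at 48 hpi, against 0.219 and 0.203 in all windows.

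**Figure D4:**
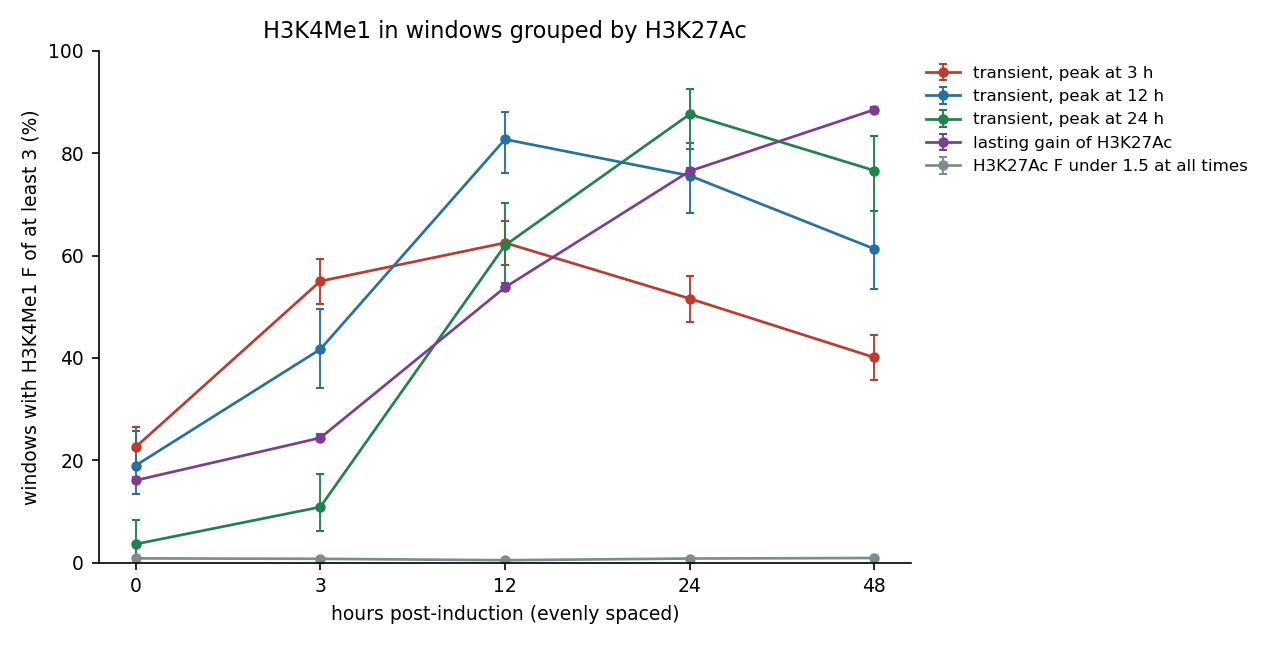
Percent of windows with H3K4Me1 F of at least 3 (points) with exact binomial 95% intervals (bars) at 5 times, for the 3 transient classes, windows with a lasting gain of H3K27Ac and windows with H3K27Ac F below 1.5 at all times. The transient classes end at 40.1%, 61.3% and 76.6% and the lasting gain at 88.5%.

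The lasting gain of H3K27Ac served as a group for comparison. Among its 15608 windows, the share with H3K4Me1 at F 3 was 16.1% at 0 hpi and 88.5% at 48 hpi, and median F went from 1.41 to 6.94. The start was close to that of the transient windows (18.7%), while the end was higher than the 50.7% of the transient windows. The intervals of the ends, which take windows as independent, did not overlap. A nearer group were the 1531 windows of lasting gain that had reached H3K27Ac F 3 by 3 hpi. Their H3K27Ac was higher at that time, with a median F of 4.61 (quartiles 3.61 to 6.84) against 3.89 (3.42 to 5.13) in the transient windows with the peak at 3 hpi. Their median H3K4Me1 F was 1.99, 4.42, 10.8, 10.7 and 9.99 over the 5 times, against 1.7, 3.28, 3.73, 3.13 and 2.52 in the transient windows with the peak at 3 hpi. The H3K4Me1 median was higher in the lasting gains at 3 hpi, and the gap was wider at 12 hpi. H3K27Ac chose both groups, so its medians are given as a description.

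H3K27Me3, also not used by the rule, changed little in its median. Its median F over the 809 windows was 1.06, 1.06, 1.1, 1.03 and 1.03. It was at least 2 at 0 hpi in 160 windows, or 19.8% (17.1 to 22.7) against 11.0% of all windows, and at 48 hpi in 172 windows, or 21.3% against 13.3%. At 12 hpi it was 24.7% against 12.0%. The share at 0 hpi was 13.1% over the windows chosen under background scaling and 22.5% under the other scaling. The shares of all windows under these scalings were not computed. Without these scalings, the share before induction was greatest in the 24 hpi class, 24.1% (17.2 to 32.1), and lowest in the 12 hpi class, 14.9% (9.87 to 21.2), with overlapping intervals. The H3K27Me3 median was no higher at 48 than at 0 hpi.

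The antigen receptor loci held 40 members, all with the peak at 3 hpi. These loci were looked at because they led the ranking, after the values were seen, so the counts are a description. They encode the immunoglobulin chains of B cells and the receptor chains of T cells, which are assembled by recombination of variable, joining and, in some, diversity segments. Members were counted from 50 kb before to 50 kb after the annotated segments. The T cell receptor gamma locus (Tcrg, chromosome 13) held 17 members among 93 windows, or 18.3%. The lambda light chain locus (Igl, chromosome 16) held 9 of 98, or 9.18%, and the kappa light chain locus (Igk, chromosome 6) 9 of 1020. The T cell receptor beta locus held 3 of 249, the heavy chain locus 2 of 908, or 0.22%, and the joint alpha and delta locus 0 of 503. Beside the 0.0972% of all windows, the counts of the last 2 loci are too low to set them apart. Lasting gains of H3K27Ac, which were 1.87% of all windows, numbered 14 of the 2871 windows in all 6 loci together and 0 of the 93 in Tcrg, where so few windows say little. Without the receptor loci 769 members remained, 464 of them with the peak at 3 hpi.

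At Tcrg, H3K27Ac summed over the 17 members was 134, 2177, 448, 178 and 83 tags over the 5 times. Each of the 17 had 65 to 305 tags at 3 hpi and at most 22 at 0 hpi. H3K4Me1 over the same windows summed to 296, 760, 1092, 587 and 389 tags. H3K4Me1 thus rose as well, in libraries apart from those that chose the windows, and was highest at 12 hpi, with a median F of 3.35. H3K27Me3 was low there throughout, with a median F of 0.396 at 0 hpi and 0.217 at 48 hpi. The first-ranked Tcrg window, chr13:19347001-19350000, held 3, 305, 25, 6 and 10 H3K27Ac tags and 8, 38, 51, 26 and 22 H3K4Me1 tags.

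At Igl, H3K27Ac over the 9 members summed to 136, 1327, 127, 46 and 51 tags, and H3K4Me1 to 205, 495, 394, 214 and 123. At Igk, H3K27Ac summed to 73, 1591, 208, 133 and 64 tags, and H3K4Me1 to 307, 584, 595, 298 and 234. In both light chain loci H3K4Me1 ended below its 0 hpi sum, and the H3K4Me1 libraries of 24 and 48 hpi were also the smallest of that mark. As median F, H3K4Me1 was 1.17 at 0 hpi and 0.687 at 48 hpi at Igl, and 1.88 and 1.53 at Igk, so lower at the end. This direction depended on the scaling. Background scaling multiplied the H3K4Me1 libraries of 0 and 48 hpi by 0.698 and 1.35, which reverses it at both loci. Scaling on windows high at all 5 times, by 1.07 and 1.1, keeps it. At Tcrg the median F went from 0.763 to 1.75, so H3K4Me1 there ended higher. At all 3 loci H3K27Ac fell from 3 to 12 hpi, between libraries that differ at the heavy chain locus, and the part of that difference in the fall was not tested.

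**Figure D5:**
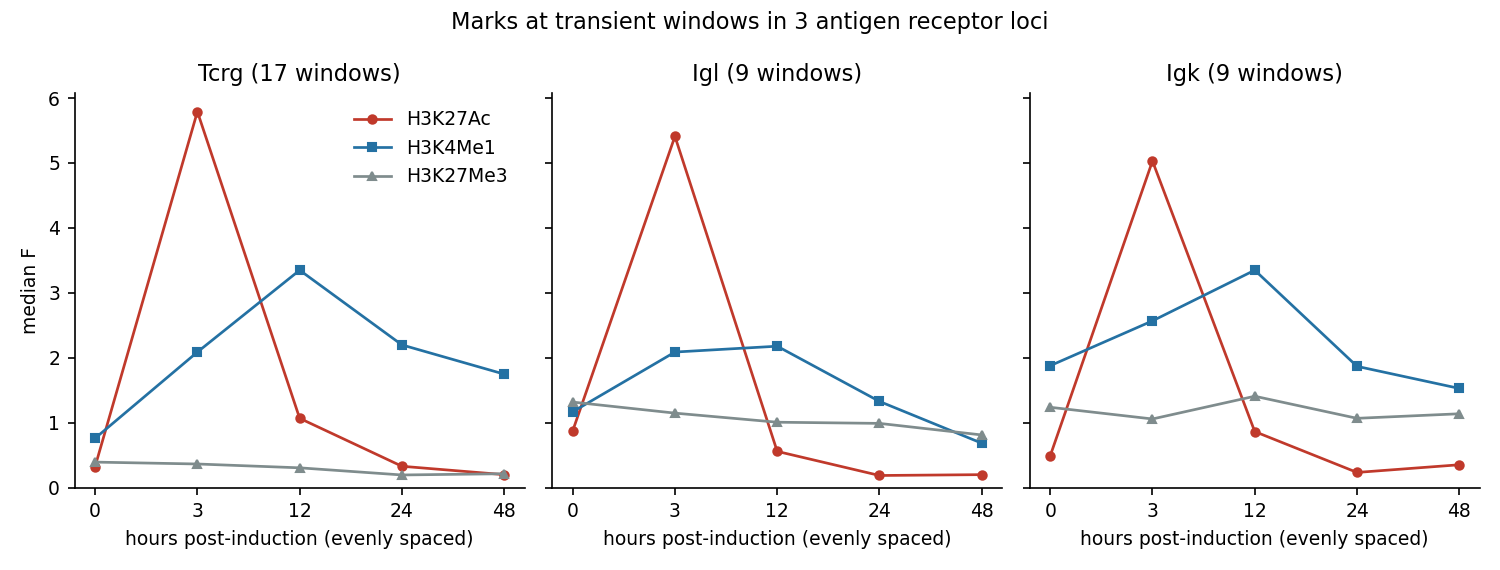
Median F of H3K27Ac, H3K4Me1 and H3K27Me3 at 5 times in the members of the T cell receptor gamma (17 windows), lambda (9) and kappa (9) loci. H3K27Ac has a median F of 5.03 to 5.79 at 3 hpi and at most 1.07 at the other times. Median H3K4Me1 is highest at 12 hpi at Tcrg and Igk. At Igl it is 2.09 at 3 hpi and 2.18 at 12 hpi, while the summed tags are higher at 3 hpi, 495 against 394.

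Of 4 T lineage markers read at their starts, Cd3e, Cd3g and Cd4 had H3K27Ac F below 1 at all times, and Lck, a kinase gene of T cells, had F of 6.8 to 12.0.

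Of 22208 protein-coding genes, 815, or 3.67%, had a transient window within 50 kb of a start, and 9546, or 43.0%, had a lasting gain. Among 22 genes of C/EBP and PU.1 family members and their partners, 4 had a transient window. A window 27.4 kb from the start of Irf4, a lymphoid and myeloid IRF factor, gave 15, 133, 86, 48 and 13 H3K27Ac tags, and 61, 104, 161, 106 and 82 H3K4Me1 tags. A window in Bach2, a repressor of plasma cell and myeloid genes in B cells, gave 16, 112, 56, 46 and 27 H3K27Ac tags. The others were near Batf3, a bZIP factor of dendritic cells, with 27, 24, 83, 55 and 22, and near Id1, an inhibitor of E proteins, with 18, 19, 96, 66 and 28. The Irf4 and Bach2 windows peaked at 3 hpi, and those near Batf3 and Id1 at 12 hpi. H3K27Ac F was close to the limit of 1.5 near Batf3 at 0 hpi (1.48), and at 48 hpi near Id1 (1.42) and in Bach2 (1.37). Both alternative scalings raised the 48 hpi library, which takes the Id1 and Bach2 windows above the limit. Those near Batf3 and Id1 adjoined a window with F of at least 3 at 0 or 48 hpi. Counts of listed genes were not recomputed under the alternatives.

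NF-κB targets had 3 of 25 genes with a transient window, namely Il6, Sod2 and Gadd45b. The window 21.8 kb from the start of Il6, a cytokine gene, gave 4, 15, 69, 74 and 23 H3K27Ac tags and 5, 9, 69, 42 and 17 H3K4Me1 tags, with both marks highest at 12 and 24 hpi. JAK-STAT feedback genes and targets had 2 of 24, Cish and Id1. The window 12.9 kb from Cish, a feedback inhibitor of cytokine receptors, gave 5, 32, 60, 46 and 16 H3K27Ac tags and lay in an intron of the neighbouring gene Mapkapk3. These numbers are of 2 to 4 genes in lists of 22 to 25, beside the 3.67% of all genes.

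Chemokines had 1 of 22, Ccl12, whose own intron held 5, 16, 50, 89 and 29 H3K27Ac tags. The F of this window at 48 hpi was 1.47, close to the limit of 1.5. Granulocyte granule genes had 1 of 18, Mmp8, with a window 39.1 kb away. Immediate early genes had 1 of 29, B lineage genes 1 of 24 and housekeeping genes 1 of 15. Mast cell, erythroid and megakaryocyte, stem cell and estrogen-responsive genes had 0 of 14, 18, 17 and 15. The 30 macrophage genes also had 0, while 27 of them had a lasting gain of H3K27Ac within 50 kb. A count of 0 in 30 is close to the 3.67% of all genes and says nothing particular of the list. Beside the 43.0% of all genes, a lasting gain was near 86.4% of the chemokines, 18 of the 24 JAK-STAT genes, 72.0% of the NF-κB targets and 60.0% of the housekeeping genes. It was near 44.4% of the erythroid and megakaryocyte genes, 29.2% of the B lineage genes, 26.7% of the estrogen-responsive genes and 23.5% of the stem and progenitor genes. Nearness is a position on the map and does not say which gene a window acts on.

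The starts of the nearest genes were compared with the windows. For windows over 5 kb from a start, the 310 nearest genes of the 3 hpi class had a median H3K27Ac F at their starts of 0.985, 1.66, 1.35, 0.997 and 1.29. For the 119 genes of the 12 hpi class the medians were 0.711, 1.28, 1.73, 1.23 and 1.17, and for the 108 genes of the 24 hpi class 0.657, 0.665, 0.764, 0.736 and 0.812. Over the starts of all 22208 genes they were 0.821, 0.95, 0.968, 0.807 and 1.12.

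By position, 13.3% of the windows (11.1 to 15.9) had their middle within 2500 bp of an annotated start, against 9.32% of all windows and 14.8% of those with a lasting gain. Their median distance to a start was 16.2 kb, against 28.8 kb. The middle was in an intron in 37.8% and outside protein-coding genes in 59.0%. Among all windows these shares were 36.1% and 60.9%, and among the lasting gains 60.9% and 32.8%. In the 24 hpi class 27.7% were in an intron (interval from 20.4 to 36) and 70.1% outside genes (61.7 to 77.6). In the 12 hpi class it was 42.9% (35.3 to 50.7) and 52.4% (44.5 to 60.1), and in the 3 hpi class 38.9% (34.6 to 43.3) and 58.1% (53.7 to 62.5). Median GC content was 42.9% against 41.3%. Per 10000 windows, members numbered from 3.37 on chromosome X to 15.6 on chromosome 19 and 15.7 on chromosome 13. Of the 60 members on chromosome 13, 17 were those of the Tcrg locus.

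Short motifs were counted over the whole 3 kb on both strands. At this length most motifs occur in most windows, and GC content shifts their number. The C/EBP motif TTGCNNAA was in 82.3%, 71.4% and 81.8% of the 3, 12 and 24 hpi classes, against 76.1% of all windows. The mean number per window was 1.81 in the 3 hpi class and 1.53 over all windows, and 1.83 in the windows of lasting gain that were high by 3 hpi. The PU.1 motif GAGGAAGT was in 18.1%, 20.8% and 24.8% of the 3 classes, against 16.6%. The AP-1 motif TGANTCA was in 61.6% of members, close to the 60.0% of all windows, and in 70.2% of the lasting gains.

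The E2A motif CAGCTG was in 72.8% of members against 64.5% of all windows, the RUNX motif TGTGGTT in 55.7% against 51.2% and the EBF1 motif CCCNNGGG in 41.5% against 35.9%. Among all windows with GC content in the members' middle range, these motifs were in 68.5%, 51.9% and 37.1%, and among the lasting gains in 75.7%, 56.3% and 43.7%. The STAT motif TTCNNNGAA was in 70.8% against 67.9%, the IRF motif GAAANNGAA in 67.9% against 69.5%, the GATA motif AGATAA in 85.0% against 86.7% and the NF-κB motif GGANTTTCC in 9.15% against 9.14%. The CRE motif TGACGTCA was in 2.84% against 1.65% of all windows and 1.82% at like GC content, and the EGR motif GTGGGCG in 9.27% against 7.09%. Matches of different motifs may overlap in part, and the CRE letters do not contain the AP-1 motif.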

How the data were processed

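The members and gene lists were chosen with earlier results of these data known. The authors aligned reads to mm9 with Eland or Bowtie, without mismatches, and removed identical tags and those without a unique alignment. The deposited files hold positions of 36 bp tags without strand, not counts, and were not filtered alike: a position carried at most 1 tag in the first and last H3K27Me3 libraries, up to 205 and 135 in the first and last H3K4Me1 libraries, and up to 2 elsewhere. Here 1 tag per position was kept and placed at its middle, 18 bp from its start, and 2 lines without a position were dropped from each of 3 files. All 15 libraries, grouped by mark and time from their labels, were used. The build was checked: 0 of 259404327 tags lay in the 27517 windows of unknown bases.

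F is defined in the opening of the results. The 15608 lasting gains and 723247 quiet windows were chosen by H3K27Ac too. Annotation was GENCODE vM1 (22208 protein-coding genes, 86803 starts), and 290 of 294 listed genes were found. Named windows were, per peak time, the first 8 by log2 of peak F over the higher end (0.5 added to each), at most 1 per 50 kb; the member of highest such value within 50 kb of each listed gene; and the 3 longest stretches. A few genes and sequences under this rule are not reported here. Other windows in the text were picked after their values were seen. With 1 library per group no test was run, and windows are not replicates. The code that chose the windows was run on simulated Poisson counts with planted peaks higher than the median peak of the members. This checks the code only, and not the choice near the limits or under another scaling. Python 3.11.15, numpy 2.4.6, pandas 2.3.3, SciPy 1.17.1 and matplotlib 3.10.9 were used. Alternatives were thinned libraries, other grids, scalings and thresholds, tags as deposited, and leaving out each middle H3K27Ac library or, added after the data were seen, the receptor loci.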

Additional observations from a re-analysis of the deposited data

How the results depend on the processing

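Counts are called moved when they differ by over 1.5 times from the main value, and shares when they leave its exact binomial interval. Under thinned libraries, tags as deposited, windows shifted by 1500 bp and no receptor loci, none of the 11 results fixed at the outset moved, nor did any of those that could be computed without the 12 hpi library. With windows of 2000 bp there were 1330 windows in 1157 stretches (820, 271 and 239 with the peak at 3, 12 and 24 hpi), and 63.8% had no high neighbour. Background scaling gave 1362 windows in 1282 stretches (155, 33 and 1174), of which 400 were shared with the 809. H3K4Me1 F was at least 3 in 5.8% at 0 hpi, 72.0% at the time of the H3K27Ac peak (66.3% of the 809) and 66.8% at 48 hpi, H3K27Me3 F was at least 2 in 13.1%, and 64.7% had no high neighbour. Scaling on windows high at all times gave 104 and 58 windows with the peak at 12 and 24 hpi, H3K4Me1 in 25% at 0 hpi and 59.8% at the peak; 579 of its 612 windows were shared. A peak of at least 4 left 334 windows in 308 stretches (233, 56 and 45), with H3K4Me1 in 72.2% at the peak and 54.5% at 48 hpi, H3K27Me3 in 24.0% and no high neighbour in 72.8%. Ends below 1 left 317 in 280 stretches (230, 53 and 34), with H3K4Me1 in 12.0%, 56.2% and 38.8% at 0 hpi, the peak and 48 hpi, H3K27Me3 in 23.7% and no high neighbour in 77.0%. A peak of at least 3 times both ends left 106 and 79 windows with the peak at 12 and 24 hpi and 73.0% without a high neighbour. Without the 3 hpi H3K27Ac library 360 windows in 338 stretches remained, with H3K4Me1 in 14.4%, 87.2% and 68.3% and no high neighbour in 65.0%, and the receptor loci then held 4 members in place of 40. Without the 24 hpi library H3K4Me1 at 48 hpi was 46.9%. The receptor loci held 26 to 66 members under the other alternatives. H3K4Me1 was higher at 48 than at 0 hpi in 69.4% to 96.5% of the windows under every alternative, and in 56.2% of all windows under background scaling. The cause of these shifts was not tested beyond what each alternative changes by its construction.

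No paired analysis was possible because there was a single library per group. Depth limits the ends: an F of 1.5 is 27.4 to 31.6 H3K27Ac tags, and the median window held 12 at 0 hpi, so low levels move in steps of a tag. Members with a peak near F 3 are set by a few tags. Changes between 3 and 12 hpi in H3K27Ac also lie between libraries that differ at the heavy chain locus, and tags of the 24 hpi library lay more in enriched windows than those of the others.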

Other observations

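The reverse pattern, a transient loss of H3K27Ac, was also present. The same limits were used: F of at least 3 at 0 and 48 hpi and below 1.5 at 3, 12 or 24 hpi. This was met by 412 of the 832530 windows with a tag in any library. The count was not recomputed under the alternative scalings. Those multiplied the 3 hpi H3K27Ac library by 0.687 and 0.99, and the 24 hpi one by 1.86 and 0.936. Of the 412 windows, 305 were below 1.5 in the 3 hpi library, 109 in the 12 hpi library and 89 in the 24 hpi library. Their median H3K27Ac F was 4.21, 1.33, 2.6, 3.11 and 4.52 over the 5 times. H3K4Me1, which did not choose them, had a median F of 5.92, 6.04, 5.05, 5.07 and 5.72. Split by the time of lowest H3K27Ac, H3K4Me1 was at least 2-fold below its 0 hpi level at that time in 1 of 280 windows (3 hpi), 18 of 73 (12 hpi) and 20 of 59 (24 hpi), beside 0.354%, 2.49% and 3.61% of all windows at these times. In windows lowest at 3 hpi its median F was 5.78, 5.75, 5.28, 5.64 and 5.72, and in those lowest at 24 hpi 7.45, 7.13, 3.91, 3.73 and 5.57. The H3K27Ac libraries of 0 and 48 hpi differ at the heavy chain locus. In windows lowest at 3 hpi the fall compares libraries that both hold the segment, while the return compares libraries that differ there. Windows lowest at 12 or 24 hpi reached that value in libraries without the segment. Most of the fall in their medians was already present in the 3 hpi library, which holds it like that of 0 hpi. In windows lowest at 12 hpi, median H3K27Ac F fell from 4.32 to 1.9 between these 2 libraries, and its lowest value was 1.27. In windows lowest at 24 hpi it fell from 5.96 to 2.04, with a lowest value of 1.19. Only the later part of these falls compares differing libraries. Time and cell population cannot be told apart where the libraries differ. The median of H3K27Me3 was between 0.595 and 0.661.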
